A study of Mus musculus with 24 samples.

Results

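The genes described here are the REV-ERB receptors, their activating counterpart RORα and clock genes under their control in mouse liver: Nr1d1, Nr1d2, Arntl, Clock, Npas2, Cry1, Nfil3 and Rora. They were chosen from earlier results of these same arrays, in which Nr1d1 stood out between the genotypes, so their differences from C57Bl6 are given as a description. Of the 8 genes listed, 7 were measured by 1 probe set each that the array annotation assigns to a single gene symbol, out of 19938 genes with such a probe set. Npas2 has no probe set assigned to it alone in the annotation table used and was not analysed here.

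Liver RNA of 24 male mice was hybridised to Mouse Gene 1.0 ST arrays of Affymetrix, each mouse on an array of its own, with 8 mice in each genotype. All were on the C57Bl6 background, with litter mates within each genotype, had free access to regular chow under a light/dark cycle and were killed at 24 weeks of age at 7 a.m., so every liver was sampled once in the daily cycle. The genotypes were wildtype C57Bl6, alb-SREBP-1a, in which the albumin promoter, active in hepatocytes, drives an N-terminal fragment of human SREBP-1a, and alb-SREBP-1a∆P, whose fragment lacks the MAPK phosphorylation sites. The hour of lights on, the order of killing and the number of founders of each line were not stated in the sources used here. SREBP-1a is a transcription factor of fatty acid and cholesterol synthesis, and the comparisons address what its overexpression does in liver and whether the phosphorylation sites matter for it.

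The circadian clock of a cell is a feedback loop of transcription. BMAL1 (the product of Arntl) and CLOCK bind E-boxes and activate, among other genes, those of their own repressors PER and CRY and of the nuclear receptors REV-ERBα (Nr1d1) and REV-ERBβ (Nr1d2). The REV-ERB proteins bind RORE elements, recruit the corepressor NCOR with the histone deacetylase HDAC3 and silence genes such as Arntl, Clock, Cry1 and Nfil3, while RORα (Rora) activates through the same elements. In liver this arm of the clock also acts on genes of lipid, bile acid and glucose metabolism.

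The promoter windows of these genes are shown because the group is named for RORE elements. E-boxes and D-boxes, through which other clock genes are controlled, were searched beside them. RefSeq windows (GRCm38.p6) from 250 bases before to 50 after each annotated start were held for all 8 genes, 11 windows in all. Both strands were searched for the half-site AGGTCA, for its extended form ANTAGGTCA or ANTGGGTCA, for the full RORE consensus, for the E-box CACGTG and for the D-box TTATGTAA or TTACGTAA. The full RORE lies over an extended half-site, and an extended half-site of the first form lies over a half-site. Each line below gives 30 bases from 5′ to 3′ with the match in capitals.
Arntl (full RORE, positions 27 to 37 after the start of 1 of its transcripts, chr7:113207528-113207557, plus strand): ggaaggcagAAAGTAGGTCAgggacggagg
Nfil3 (extended half-site on the strand opposite the gene, 12 to 4 bases before an annotated start inside the gene span, chr13:52981032-52981061, plus strand): agatgtgtgttAGTAGGTCAgttccgagcg
Nr1d2 (half-site, 77 to 72 bases before the start, chr14:18239166-18239195, minus strand): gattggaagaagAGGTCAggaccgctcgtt
Clock (half-site on the strand opposite the gene, 119 to 114 bases before 1 of its starts, chr5:76303604-76303633, plus strand): ctgtcatctgtcAGGTCAgaggccaaagct
Cry1 (E-box, 60 to 55 bases before the start, chr10:85185097-85185126, minus strand): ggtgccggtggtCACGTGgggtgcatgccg
Over all 32851 windows, 16.3% held a half-site, 1.45% an extended half-site, 0.384% the full RORE, 7.15% an E-box and 1.06% a D-box. The windows of Nr1d1, Rora and Npas2 held none of these letters, and no window of the 8 genes held a D-box. A match is a run of letters and was not tested as a binding site.

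Levels are log2 values that the authors computed by RMA, so a difference of 1 is a doubling. Differences were fitted with limma on 8 against 8 arrays and are given ± standard error, and the test was passed by a probe set whose Benjamini-Hochberg p over all 35556 (the adjusted p) was under 0.05. Such p-values reflect how far these mice differ among themselves. In RNA of whole liver, fewer cells of a type and less RNA per cell cannot be told apart.

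Nr1d1, the gene of REV-ERBα (chr11:98767932-98775377, probe set 10390691), stood apart in both lines. In C57Bl6 its lowest, median and highest levels over 8 arrays were 6.84, 7.07 and 7.52. They were 9.96, 10.4 and 10.7 in alb-SREBP-1a, with 10.5, 10.7 and 10.8 in alb-SREBP-1a∆P. Every transgenic array lay above every C57Bl6 array, and the distance between the groups was several times the range within any of them. The difference from C57Bl6 was 3.20 ± 0.12, or 9.20-fold, in alb-SREBP-1a and 3.50 ± 0.10, or 11.3-fold, in alb-SREBP-1a∆P. By the size of this difference it ranked 17 among 35556 probe sets in the first comparison and 212 in the second. The SD over 8 arrays was 0.25 in C57Bl6, 0.24 in alb-SREBP-1a, with 0.13 in alb-SREBP-1a∆P.

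Nr1d2 encodes the related receptor REV-ERBβ (chr14:18204056-18239106, probe set 10417734). Its lowest, median and highest levels were 7.03, 7.55 and 7.73 in C57Bl6, 8.29, 8.75 and 9.27 in alb-SREBP-1a, with 8.50, 8.74 and 9.16 in alb-SREBP-1a∆P. Both lines lay wholly above C57Bl6 and overlapped each other over most of their range. Its difference from C57Bl6 was 1.31 ± 0.14, or 2.48-fold, in alb-SREBP-1a and 1.34 ± 0.12, or 2.54-fold, in alb-SREBP-1a∆P.

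Rora, the activator at the same elements (chr9:68653404-69388246, probe set 10586700), was lower in both lines. Its lowest, median and highest levels were 8.38, 8.78 and 9.28 in C57Bl6, 8.20, 8.29 and 8.47 in alb-SREBP-1a, with 7.86, 8.11 and 8.38 in alb-SREBP-1a∆P. In alb-SREBP-1a 6 of 8 arrays and in alb-SREBP-1a∆P all 8 lay below the lowest C57Bl6 array, the last of them by under 0.01. The C57Bl6 arrays spread widest (SD 0.27), with replicate 4 highest and replicate 7 lowest, against an SD of 0.09 in alb-SREBP-1a. The difference from C57Bl6 was −0.46 ± 0.10 in alb-SREBP-1a, with −0.66 ± 0.11 in alb-SREBP-1a∆P, which are 1.37-fold and 1.58-fold lower levels. In alb-SREBP-1a∆P it lay between −0.82 and −0.40 over the settings tried.

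Arntl, the gene of the activator BMAL1 and the one whose window held the full RORE shown above, had the largest shortfall of the 7 genes in alb-SREBP-1a∆P (chr7:113178471-113314126, probe set 10556463). Its lowest, median and highest levels were 7.55, 7.63 and 8.21 in C57Bl6, 6.18, 6.81 and 7.32 in alb-SREBP-1a, with 5.79, 6.01 and 6.52 in alb-SREBP-1a∆P. Both lines lay wholly below C57Bl6. Within alb-SREBP-1a the arrays spread over 1.14, with replicates 3 (7.20) and 4 (7.32) closest to C57Bl6 and replicates 1 (6.39), 2 (6.18) and 5 (6.40) within the range of alb-SREBP-1a∆P. Against C57Bl6 the difference was −0.99 ± 0.16, or 1.99-fold lower, in alb-SREBP-1a and −1.66 ± 0.11, or 3.16-fold lower, in alb-SREBP-1a∆P.

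Clock, the partner of BMAL1 (chr5:76209868-76305603, probe set 10530733), had the smallest differences from C57Bl6 of the 7 genes. Its lowest, median and highest levels were 8.75, 8.96 and 9.04 in C57Bl6, 8.33, 8.66 and 8.97 in alb-SREBP-1a, with 8.05, 8.25 and 8.49 in alb-SREBP-1a∆P. The alb-SREBP-1a∆P arrays all lay below C57Bl6, while in alb-SREBP-1a replicates 3 (8.97) and 4 (8.92), the same arrays in which Arntl was high, lay among C57Bl6. The difference from C57Bl6 was −0.65 ± 0.08 in alb-SREBP-1a∆P, and lay between −0.81 and −0.39 over the settings tried. In alb-SREBP-1a it was −0.29 ± 0.10 and did not pass the test, with a 95% confidence interval from −0.49 to −0.09. It passed under 7 of 10 alternative settings.

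Cry1, a repressor of BMAL1 and CLOCK that REV-ERBα in turn represses (chr10:85131700-85185054, probe set 10371400), was lower in every transgenic array. The lowest, median and highest levels were 6.87, 7.22 and 7.71 in C57Bl6, 5.60, 6.20 and 6.36 in alb-SREBP-1a, with 5.49, 5.82 and 6.05 in alb-SREBP-1a∆P. The lines overlapped, with 1 alb-SREBP-1a∆P array below all of alb-SREBP-1a. The differences from C57Bl6 were −1.13 ± 0.13, or 2.19-fold lower, and −1.40 ± 0.12, or 2.65-fold lower.

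Nfil3 encodes a bZIP repressor that competes with DBP at D-boxes (chr13:52967209-52982878, probe set 10409278). Its lowest, median and highest levels were 8.03, 8.23 and 8.38 in C57Bl6, 7.26, 7.66 and 7.89 in alb-SREBP-1a, with 6.49, 6.89 and 7.69 in alb-SREBP-1a∆P. The transgenic arrays all lay below C57Bl6. Replicate 4 (7.69) of alb-SREBP-1a∆P lay above its other arrays and within alb-SREBP-1a, and the difference of this line from C57Bl6 was −1.27 ± 0.14 with it and −1.38 without it. In alb-SREBP-1a the difference was −0.60 ± 0.08.

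**Figure D1:**
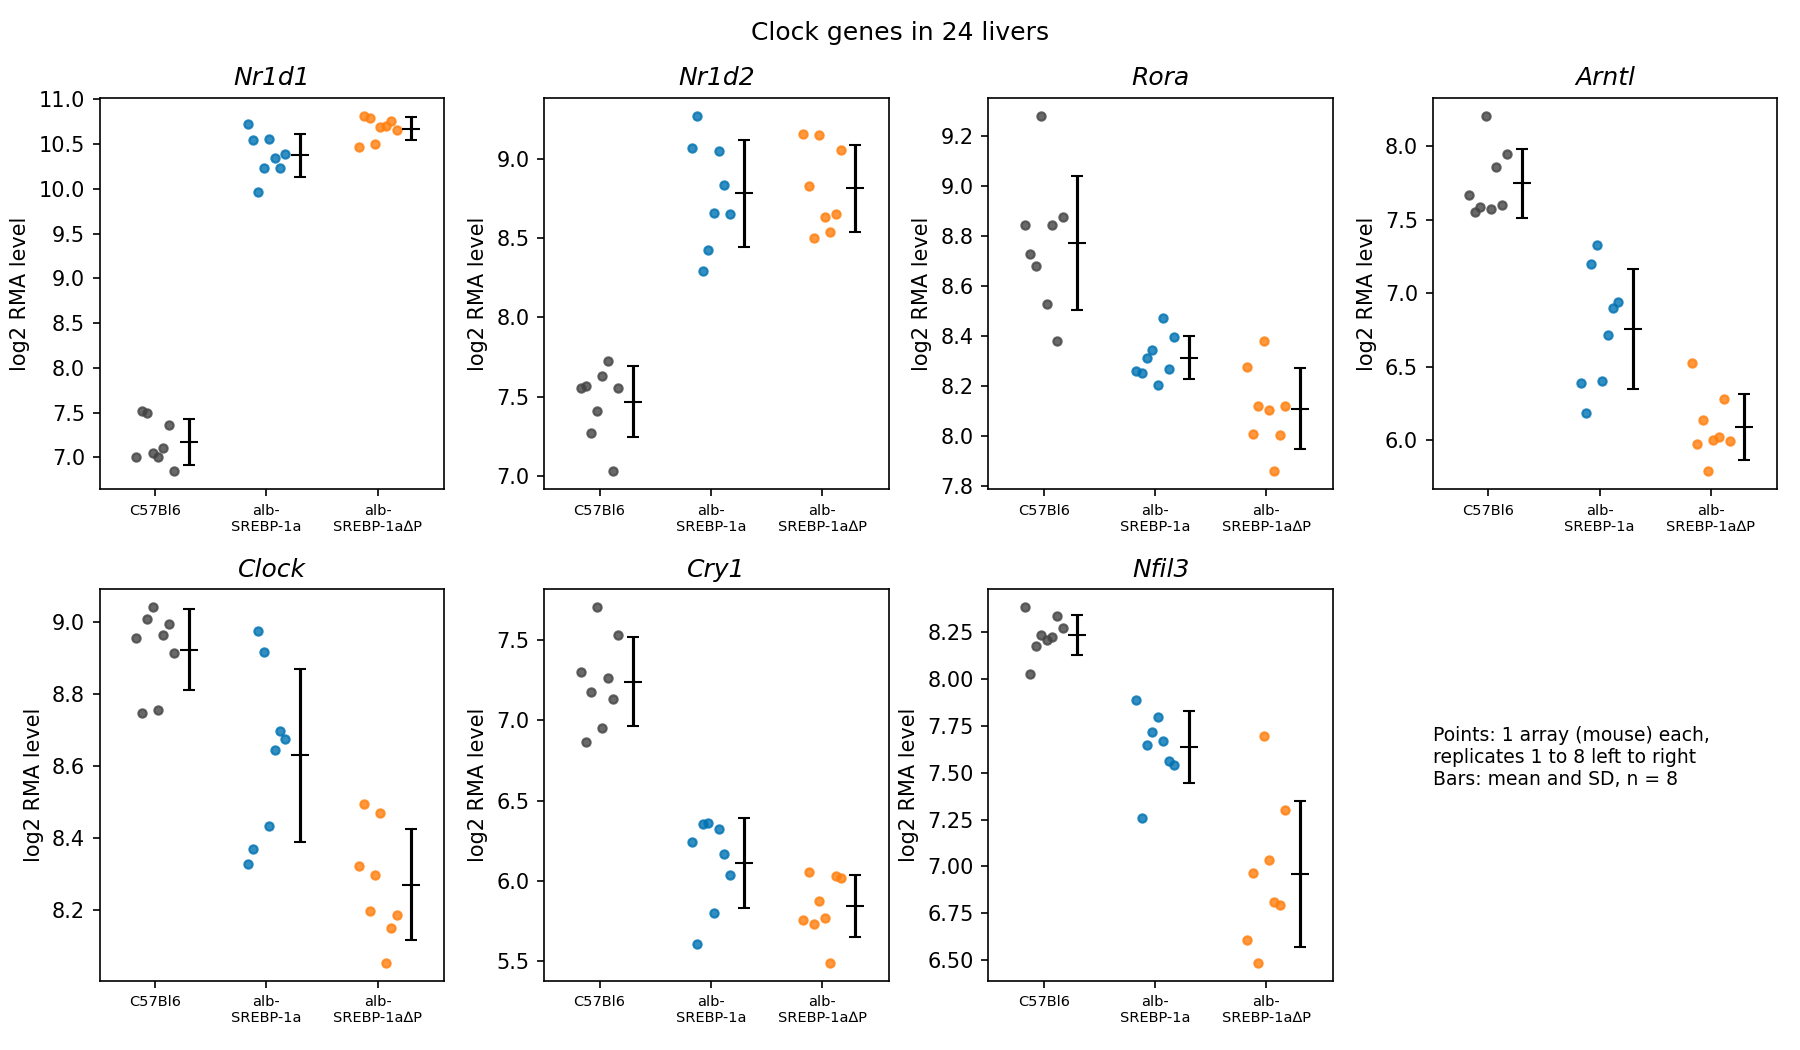
Log2 RMA level (vertical axis, a separate scale for each gene) of the 7 measured clock genes in the 3 genotypes. Each point is 1 array and the bars give mean and SD over 8 arrays. Nr1d1 and Nr1d2 lie above C57Bl6 in every transgenic array, and Arntl, Cry1 and Nfil3 lie below it in every one.

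Counted by the test, 6 of 7 genes passed in alb-SREBP-1a against C57Bl6, where 10.8% of all probe sets did. Nr1d1 and Nr1d2 were higher, as were 6.77% of probe sets, and Rora, Arntl, Cry1 and Nfil3 were lower, as were 3.98%. In alb-SREBP-1a∆P against C57Bl6 all 7 measured genes passed, where 47.2% of probe sets did, with 2 higher (27.0% of probe sets) and 5 lower (20.2%). The groups did not overlap for 5 of 7 genes in the first comparison (3.07% of probe sets) and for 7 of 7 in the second (11.8%). Since the genes were chosen with these differences known, nothing is read from the counts. The median size of the difference over the 7 genes was 0.99 in the first comparison and 1.34 in the second, beside 0.13 and 0.30 over all probe sets, and both comparisons share the C57Bl6 arrays.

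**Figure D2:**
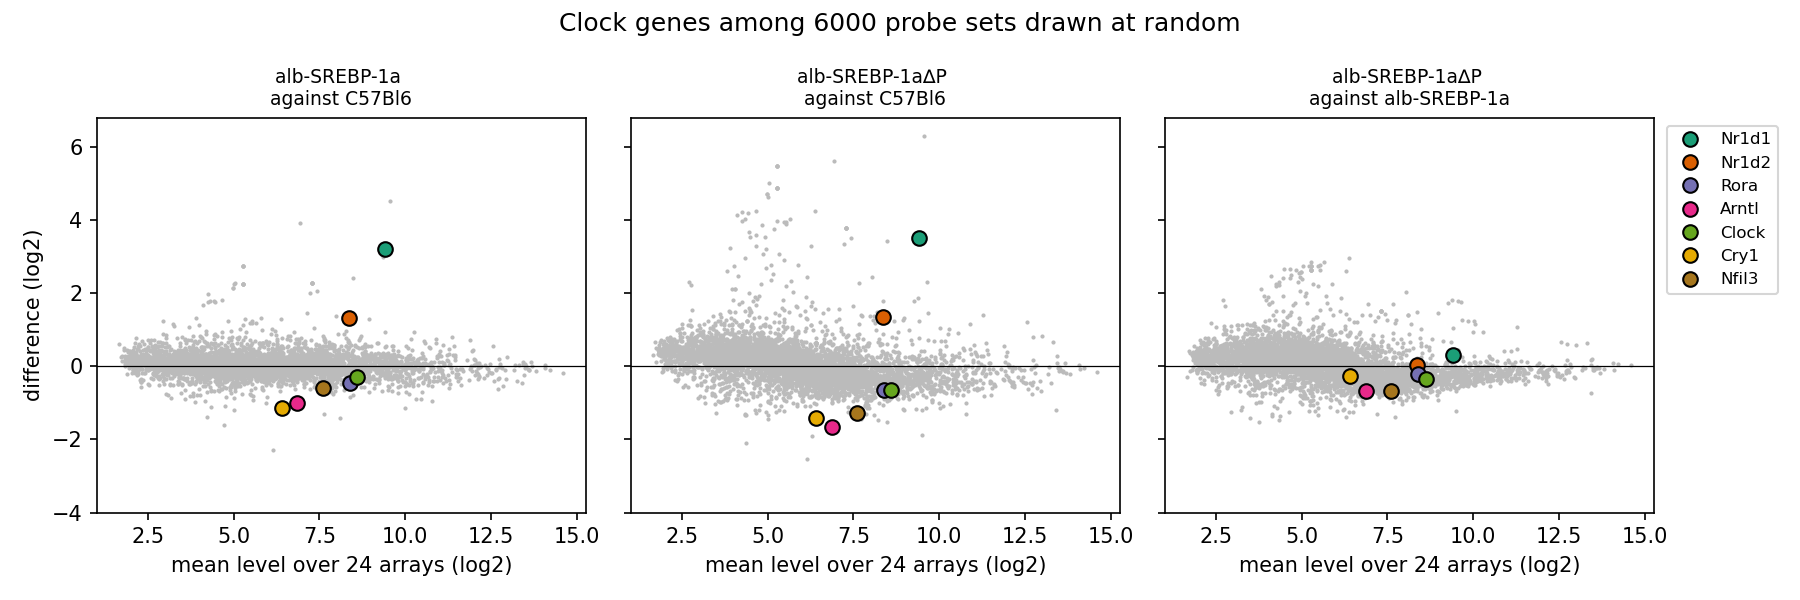
Difference (log2, vertical axis) against mean level over 24 arrays (log2, horizontal axis) in the 3 comparisons. Grey points are 6000 probe sets drawn at random and coloured points are the 7 clock genes. Nr1d1 lies above most of the grey points in the first 2 panels (3.20 and 3.50) and close to them in the third (0.30).

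The comparison of the lines sets the fragment without the phosphorylation sites against the intact one. Since each fragment was carried by its own line, an effect of the sites cannot be told apart from other differences between the lines. The genes were chosen with earlier results of all 3 genotypes known, so these differences too are a description and no p is given for them. Nr1d1 was higher in alb-SREBP-1a∆P by 0.30 ± 0.10, with 3 of 8 arrays above every alb-SREBP-1a array. Arntl was lower, by −0.67 ± 0.16, as were Nfil3, by −0.67 ± 0.15, and Clock, by −0.36 ± 0.10, each with 6 of 8 arrays below every alb-SREBP-1a array. Rora was lower by −0.20 ± 0.08, but the difference turned to 0.0042 after quantile normalization and to 0.080 after cyclic loess. Nr1d2 differed by 0.03 ± 0.15 (95% confidence interval from −0.28 to 0.34) and had no settled direction, with values from −0.14 to 0.32 over the settings tried. Cry1 differed by −0.27 ± 0.12 (−0.52 to −0.02), with 1 of 8 arrays below every alb-SREBP-1a array.

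In this comparison 5 of 7 genes passed the adjusted threshold, 1 higher and 4 lower, where 44.2% of all probe sets passed, 22.8% higher and 21.4% lower. No gene separated the lines without overlap, as 5.95% of probe sets did, and the median size of the difference was 0.30, beside 0.29 over all probe sets. Differences in alb-SREBP-1a∆P moved with brightness. With all probe sets divided by mean level into 10 groups of equal size, the group of like brightness had a median difference of −0.20 for Nr1d1, of −0.31 for Nr1d2, Rora, Clock and Nfil3, of −0.27 for Arntl and of −0.08 for Cry1. Relative to these medians the differences between the lines were 0.50 for Nr1d1, 0.34 for Nr1d2, 0.10 for Rora, −0.40 for Arntl, −0.05 for Clock, −0.19 for Cry1 and −0.37 for Nfil3. Arntl lay between −0.83 and −0.48 over the settings tried and passed in all of them. Other genes missed the threshold in some: Clock differed by −0.15 after quantile normalization and by −0.08 after cyclic loess, Nfil3 by −0.40 after cyclic loess, and Nr1d1 by 0.13 with each array centred on its median. Against C57Bl6 the differences of alb-SREBP-1a∆P were also taken relative to the median of each gene's group. They were 3.70 for Nr1d1, 1.63 for Nr1d2, −0.37 for Rora, −1.43 for Arntl, −0.37 for Clock, −1.36 for Cry1 and −0.98 for Nfil3.

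**Figure D3:**
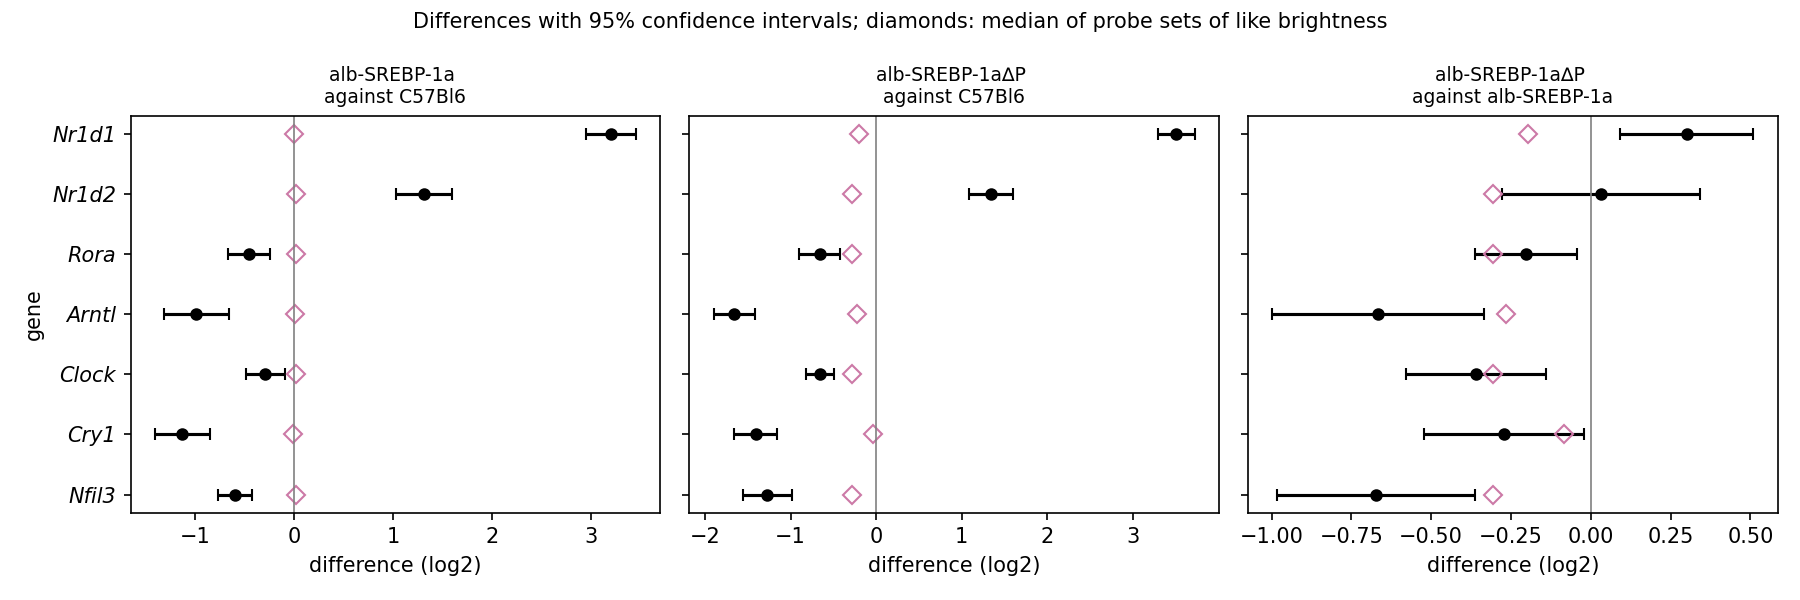
Difference between genotypes (log2, horizontal axis) of each clock gene, with 95% confidence intervals, in the 3 comparisons. Points are fitted differences over 8 against 8 arrays, and diamonds are the median difference of probe sets in the same of 10 groups by mean level. In the right panel the intervals of Clock and Rora hold the diamond (−0.31 for both), while that of Arntl lies below it (−0.27).

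Within a genotype the genes varied together in part. In C57Bl6 replicate 4 had the highest Arntl, Clock, Cry1 and Rora, and replicate 2 had the highest Nr1d1 and the lowest Arntl, Clock, Cry1 and Nfil3. In alb-SREBP-1a replicate 3 had the lowest Nr1d1 and Nr1d2 and the highest Clock, while replicate 2 had the highest Nr1d2 and the lowest Arntl, Cry1 and Nfil3. In alb-SREBP-1a∆P replicate 6 had the lowest Clock, Cry1 and Rora, but replicate 4 combined the lowest Arntl with the highest Rora and Nfil3. Over the deviations of 24 arrays from the mean of their genotype, the Pearson correlation was 0.64 between Arntl and Clock, 0.61 between Arntl and Cry1, 0.58 between Clock and Cry1 and 0.54 between Cry1 and Rora. For Nr1d1 it was −0.63 with Arntl, −0.50 with Clock, −0.45 with Cry1, −0.42 with Rora, −0.17 with Nfil3 and 0.02 with Nr1d2. These values are a description of arrays that also share differences in overall signal.

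**Figure D4:**
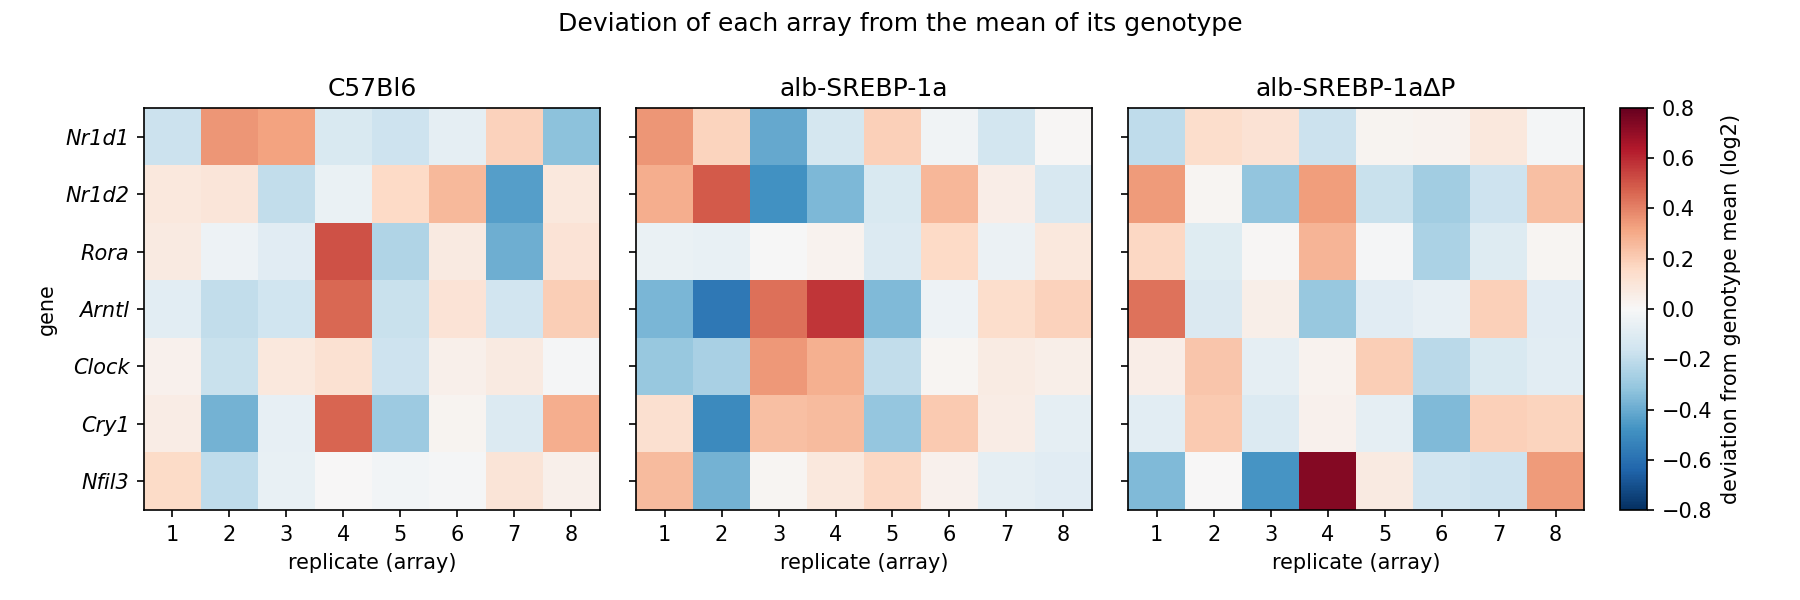
Deviation of each array from the mean of its genotype (log2, colour scale) for 7 clock genes (rows) and replicates 1 to 8 (columns) of each genotype. Replicates 3 and 4 of alb-SREBP-1a have low Nr1d1 and Nr1d2 with high Arntl and Clock, and replicates 1, 2 and 5 have high Nr1d1 with low Arntl and Clock.

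Whether Nr1d1 moved with the other genes was tested within each genotype over 8 arrays by exact permutation of the pairing, two-sided, over 18 relations. Of these 1 passed after Benjamini-Hochberg adjustment. Nr1d1 and Clock in alb-SREBP-1a had r = −0.94 (exact permutation p = 0.000223, adjusted p = 0.00402) and rho = −0.93 (exact permutation p = 0.00223, adjusted p = 0.0402). Without replicates 1 and 3, the arrays farthest from the median of Nr1d1, r was −0.91 over 6 arrays, where the adjusted p was 0.208. Without replicates 1 and 2 it was −0.91 (adjusted p = 0.179), again over 6 arrays. With all 8 arrays it was −0.79 (adjusted p = 0.175) after quantile normalization and −0.77 (adjusted p = 0.163) after cyclic loess. Arntl in the same line had r = −0.84 (exact permutation p = 0.00903, adjusted p = 0.0813) and rho = −0.76 (exact permutation p = 0.0368, adjusted p = 0.296), and r = −0.88 without those arrays.

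Nr1d2 had r = 0.71 with Nr1d1 in alb-SREBP-1a (exact permutation p = 0.0485, adjusted p = 0.175; rho = 0.62, exact permutation p = 0.115, adjusted p = 0.296) and r = −0.78 in alb-SREBP-1a∆P (exact permutation p = 0.0226, adjusted p = 0.134; rho = −0.69, exact permutation p = 0.0694, adjusted p = 0.296). The difference between the lines in this relation was not tested. Rora in alb-SREBP-1a∆P had r = −0.76 (exact permutation p = 0.0299, adjusted p = 0.134) and rho = −0.69 (exact permutation p = 0.0694, adjusted p = 0.296). Without replicates 1 and 4 of alb-SREBP-1a∆P, r fell to −0.33 for Nr1d2 and to −0.06 for Rora, so that both rest on those arrays. Without replicates 1 and 3 of alb-SREBP-1a, r of Nr1d2 was 0.43. The remaining 13 relations lay between −0.59 and 0.18, with adjusted p from 0.344 to 0.974. In C57Bl6 all 6 values were below 0, with r = −0.56 for Arntl and −0.07 for Clock.

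**Figure D5:**
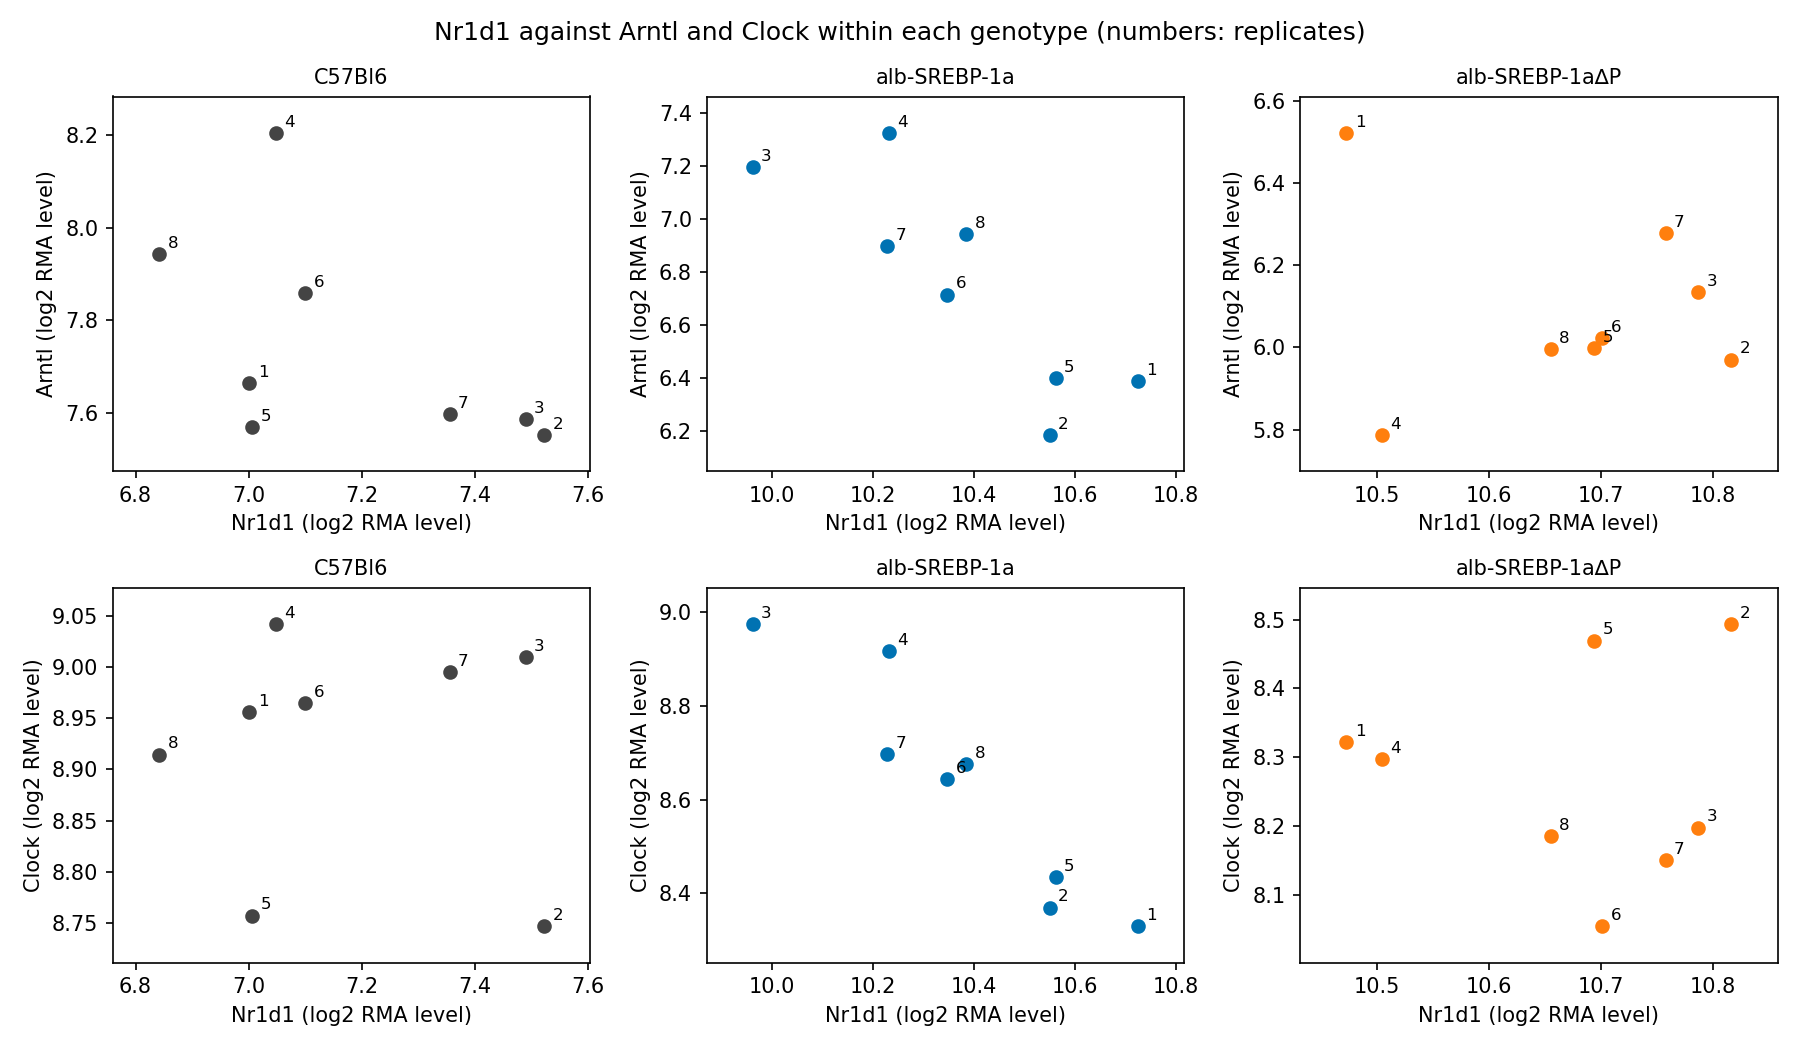
Level of Arntl (upper row) and Clock (lower row) against Nr1d1 (log2 RMA levels, own scale in each panel) in the 8 arrays of each genotype, numbered by replicate. In alb-SREBP-1a both genes were lower where Nr1d1 was higher (r = −0.84 and −0.94), while in alb-SREBP-1a∆P the points show no such order (r = −0.17 and −0.01).

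Among 11513 other genes at or above the median level, those most like Nr1d1 within genotypes, by Pearson correlation over the same 24 deviations, were Rpph1 (0.81), the RNA component of RNase P, Limd2 (0.80), the dynactin subunit Dctn1 (0.79), Igfbp4 (0.79), a binding protein of insulin-like growth factors, and Esrra (0.78), an orphan nuclear receptor of mitochondrial genes. Most opposite were C1galt1 (−0.91), a galactosyltransferase of O-glycans, Tmem41b (−0.88), Hacd2 (−0.84), a dehydratase of very long chain fatty acid elongation, the splicing kinase Clk4 (−0.82) and the sphingosine 1-phosphate phosphatase Sgpp1 (−0.81). For Arntl the closest were the tight junction gene Cldn1 (0.87), the cAMP phosphodiesterase Pde4b (0.84), the steroid dehydrogenase Hsd17b6 (0.81), the fatty acid elongase Elovl3 (0.81) and Sumo2 (0.78). The most opposite were E130304I02Rik (−0.78), the interleukin 15 receptor chain Il15ra (−0.76), the mitochondrial gene Chchd10 (−0.75), Naprt (−0.75), an enzyme of NAD synthesis, and Lyl1 (−0.75). These genes were picked as extremes of the search.

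Of 10 measured genes in the other arm of the clock, under E-box and D-box control, 5 rose and none fell in alb-SREBP-1a (9 and 0 at an unadjusted p under 0.05, 6.77% of all probe sets higher by the adjusted p), with a median of 0.40 beside 0.01 over all probe sets. In alb-SREBP-1a∆P 6 rose and none fell (also without adjustment, 27.0% of probe sets higher), with a median of 0.47 beside 0.11. After quantile normalization 4 and 7 passed in these comparisons and after cyclic loess 5 and 8, again none lower. Promoter windows were held for 8 of these genes, and 4 had an E-box, 1 a D-box and 1 a half-site. This list and those below were written with earlier results of these data known, so the p-values given for their genes are a description. Dbp, a PAR bZIP activator at D-boxes, rose from a mean of 6.58 to 7.90 in alb-SREBP-1a, by 1.32 ± 0.22 (limma, adjusted p = 0.000819), and to 8.41 in alb-SREBP-1a∆P, by 1.84 ± 0.14 (adjusted p = 5.47e-08). The repressor Bhlhe41 rose by 0.63 ± 0.12 and 1.15 ± 0.16. It is dim, with means of 3.65 in C57Bl6, 4.28 and 4.80, below the median level of every array. Its second difference shrank to 0.84 after quantile normalization and 0.83 after cyclic loess, and passed in both. Tef, related to Dbp, rose by 0.43 ± 0.13 (adjusted p = 0.0337, but 0.0603 after quantile normalization) and 0.65 ± 0.09. Hlf, the third PAR bZIP gene, rose by 0.31 ± 0.06 in alb-SREBP-1a (adjusted p = 0.00294), where all 8 arrays lay above C57Bl6. In alb-SREBP-1a∆P it differed by 0.08 ± 0.09 and did not pass, but it did after quantile normalization (0.23, adjusted p = 0.0306) and cyclic loess (0.33, adjusted p = 0.00237). Per1, Per2 and Cry2 did not pass, with differences of 0.05, 0.25 and 0.18 in alb-SREBP-1a, and of 0.28, 0.23 and −0.07 in alb-SREBP-1a∆P, where Per2 passed after cyclic loess (0.35, adjusted p = 0.0322). Between the lines Ciart, a repressor of BMAL1 and CLOCK, was higher in alb-SREBP-1a∆P by 0.60 ± 0.14 (adjusted p = 0.00341) and Bhlhe41 by 0.52 ± 0.17 (adjusted p = 0.0216, 0.328 after quantile normalization), and Hlf was lower by −0.23 ± 0.08 (adjusted p = 0.0341), which turned to 0.05 after cyclic loess.

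Among the partners of the receptors, calls in alb-SREBP-1a∆P depended on the scaling. Against C57Bl6, groups 8, 9 and 10 of 10 by rising mean level had median differences of −0.23, −0.29 and −0.20 in this line. Of 6 listed genes of the corepressor complex that REV-ERB recruits, 4 were measured, and NCOR itself was not among them. Gps2 rose by 0.54 ± 0.10 in alb-SREBP-1a (adjusted p = 0.00246) and by 0.49 ± 0.12 in alb-SREBP-1a∆P (adjusted p = 0.00399), where it reached 0.75 after cyclic loess. In alb-SREBP-1a∆P the other 3 fell, where 20.2% of all probe sets were lower. Hdac3, the deacetylase of the complex, fell by 0.54 ± 0.08 (adjusted p = 6.03e-05) with all 8 arrays below C57Bl6, and still passed at −0.28 after cyclic loess. Tbl1x fell by 0.38 ± 0.07 and Tbl1xr1 by 0.27 ± 0.07, and neither passed after cyclic loess (−0.13 and −0.00). In alb-SREBP-1a Hdac3 (−0.17) and Tbl1xr1 (0.18) did not pass, but Hdac3 did after quantile normalization (−0.20, adjusted p = 0.0346) and cyclic loess (−0.18, adjusted p = 0.0437). Of 7 coactivators that ROR receptors can use, 3 rose in alb-SREBP-1a, where 6.77% of all probe sets were higher. These were Ep300 by 0.36 ± 0.06, Ncoa1 by 0.24 ± 0.06 and Crebbp by 0.22 ± 0.06. In alb-SREBP-1a∆P, where 20.2% were lower, 2 fell and none rose, Ppargc1a by 0.44 ± 0.12 and Ncoa3 by 0.41 ± 0.09. After cyclic loess neither passed (adjusted p = 0.0952 and 0.0900) and 3 others were higher, Ppargc1b (0.32, adjusted p = 0.0149), Ncoa2 (0.18, adjusted p = 0.0414) and Ep300 (0.22, adjusted p = 0.0210), so that this list has no settled direction in alb-SREBP-1a∆P. Rorb, the other ROR receptor measured, was higher by 0.31 ± 0.10 in alb-SREBP-1a∆P (adjusted p = 0.0242), which did not pass after quantile normalization (0.07) or cyclic loess (0.07).

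Of genes of clock protein turnover and of heme, the ligand of the REV-ERB receptors, limma called 0 of 9 and 0 of 8 in alb-SREBP-1a. At an unadjusted p under 0.05 the counts were 3 and 2. By the adjusted p 10.8% of all probe sets passed in this comparison, so nothing is read from counts of 0 in lists this short. Of the first list Huwe1, a ubiquitin ligase, passed after quantile normalization (0.16, adjusted p = 0.0395) and cyclic loess (0.16, adjusted p = 0.0421), and differed by 0.17 ± 0.07 (adjusted p = 0.128) as deposited. In the same comparison, Gsk3b, a kinase that stabilizes REV-ERBα, differed by 0.17 ± 0.07 and Hmox1, which breaks heme down, by 0.35 ± 0.14 (adjusted p = 0.116). In alb-SREBP-1a∆P 5 of 9 and 5 of 8 fell, where 20.2% of all probe sets were lower, and at an unadjusted p under 0.05 it was 6 and 5. The list medians were −0.25 and −0.38, beside −0.23, −0.29 and −0.20 in groups 8, 9 and 10 of 10 by rising mean level. After quantile normalization 4 and 4 were lower, and after cyclic loess 3 and 2. None rose as deposited, but Hmox1 was higher after cyclic loess (0.44, adjusted p = 0.0360) and differed by 0.20 ± 0.17 before it. Of the 5 turnover genes that fell, the ubiquitin ligase Mycbp2 alone passed after cyclic loess, at −0.29, having fallen by 0.48 ± 0.07 (adjusted p = 6.04e-05) as deposited, while Fbxw7 (−0.33) and Fbxl21 (−0.34), which had not passed, did. Siah2, which targets REV-ERBα for degradation, fell by 0.38 ± 0.07 (adjusted p = 0.185 after cyclic loess) and Btrc, which marks PER proteins for degradation, by 0.35 ± 0.10 (adjusted p = 0.145 after quantile normalization and 0.444 after cyclic loess). Of the heme synthesis enzymes Cpox fell by 0.67 ± 0.11 (−0.41 after cyclic loess) and Urod by 0.49 ± 0.09 (−0.27 after cyclic loess), and both passed there too. Fech fell by 0.34 ± 0.07 and did not pass after quantile normalization or cyclic loess (adjusted p = 0.108 and 0.450). Between the lines 7 of 9 and 5 of 8 genes were lower in alb-SREBP-1a∆P, where 21.4% of probe sets were. After cyclic loess 2 and 1 passed, where 21.7% of all probe sets passed in either direction. Most of these genes are bright. The list medians as deposited were −0.29 and −0.31, beside −0.27, −0.31 and −0.20 in brightness groups 8, 9 and 10. Nothing is read from these counts.

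Of 16 measured liver genes known as REV-ERB or ROR targets, 1 rose and 5 fell in alb-SREBP-1a (median −0.08, beside 0.01 over all probe sets, of which 6.77% were higher and 3.98% lower). In alb-SREBP-1a∆P 3 rose and 8 fell (median −0.37, beside 0.11 over all probe sets, of which 27.0% were higher and 20.2% lower). Most of these genes are bright. In that comparison groups 9 and 10 of 10 by rising mean level had median differences of −0.29 and −0.20. After quantile normalization 2 rose and 8 fell (median −0.30), and after cyclic loess 3 rose and 7 fell (median −0.25). Elovl3, an elongase with a strong daily rhythm in liver, fell from a mean of 12.8 to 11.8 in alb-SREBP-1a, by 0.93 ± 0.17 (adjusted p = 0.00166), and to 11.7 in alb-SREBP-1a∆P, by 1.10 ± 0.09 (adjusted p = 1.09e-07). G6pc, the last enzyme of glucose output, fell by 0.84 ± 0.14 and 1.31 ± 0.11. All 8 arrays of each line lay below every C57Bl6 array for both genes. Insig2, which retains SREBP precursors in the endoplasmic reticulum, fell by 0.65 ± 0.17 in alb-SREBP-1a (adjusted p = 0.0206), while the fall in alb-SREBP-1a∆P was 1.17 ± 0.11 (adjusted p = 1.05e-06). Apoa5, a regulator of plasma triglycerides, fell by 0.31 ± 0.06 (adjusted p = 0.00234) and 0.68 ± 0.07 (adjusted p = 1.27e-06) in the same order. Between the lines, in the direction of lower levels in alb-SREBP-1a∆P, Apoa5 differed by −0.37 ± 0.06 (adjusted p = 0.000334), the lipid droplet gene Plin2 by −0.57 ± 0.08 (adjusted p = 0.000136) and the fatty acid transporter Cd36 by −1.02 ± 0.28 (adjusted p = 0.00935, 0.0590 after cyclic loess). The lists were written with earlier results of these data known. Between the lines 40 of 84 listed genes, cell markers included, passed, which is 47.6% beside 44.2% of all probe sets. After quantile normalization it was 21, or 25% beside 23.4%, and after cyclic loess 12, or 14.3% beside 21.7%.

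The mean level of 6 hepatocyte markers on an array was 13.11 to 13.32 in C57Bl6, 12.85 to 13.06 in alb-SREBP-1a, with 12.82 to 12.98 in alb-SREBP-1a∆P. By this mean every transgenic array lay below every C57Bl6 array. The log2 summed levels of these markers were 15.9813 to 16.1766, 15.7903 to 16.0018 and 15.6895 to 15.8467 in the same order. By the sum alb-SREBP-1a overlapped C57Bl6, while alb-SREBP-1a∆P lay wholly below it. Of these markers 2 of 6 were lower in alb-SREBP-1a and 4 did not pass, with differences from −0.75 to −0.03 and a median of −0.14. The count of lower markers was 5 of 6 for alb-SREBP-1a∆P (3 after quantile normalization or cyclic loess). As deposited, 6.77% of all probe sets were higher and 3.98% lower in alb-SREBP-1a, beside 27.0% and 20.2% for alb-SREBP-1a∆P. Of 6 Kupffer cell markers 4 were higher in the first of these lines. In the second line 2 were higher (3 after quantile normalization and 4 after cyclic loess). Their log2 summed levels were 10.4 to 11.0 in C57Bl6, 10.8 to 11.4 in alb-SREBP-1a and 10.7 to 11.5 in alb-SREBP-1a∆P. For lymphocyte markers (1 of 5 higher in each line, 0 after quantile normalization) the summed levels were 7.50 to 7.80, 7.88 to 8.16 and 7.66 to 8.15. Of 6 endothelial markers 2 were higher in alb-SREBP-1a (and 1 lower after quantile normalization) and 1 was higher and 1 lower in alb-SREBP-1a∆P (3 and 1 after cyclic loess), with summed levels of 10.6 to 11.0, 10.6 to 11.0 and 10.4 to 10.8. Of 6 stellate cell markers none passed in alb-SREBP-1a (2 at an unadjusted p under 0.05) and 1 was lower in alb-SREBP-1a∆P (1 higher and 1 lower after quantile normalization, 2 and 0 after cyclic loess), with summed levels of 11.5 to 11.8, 11.5 to 11.8 and 11.2 to 11.6. Their part in the differences of the clock genes was not tested. The SD of log2 values on an array was 2.02 to 2.09 in alb-SREBP-1a∆P, below the 2.18 to 2.25 of C57Bl6 and the 2.14 to 2.23 of alb-SREBP-1a. On the first principal component alb-SREBP-1a∆P replicate 4 (15.7) stood apart from the other arrays of its genotype (55.0 to 90.3), and a further setting left out alb-SREBP-1a replicates 1 and 2. Without alb-SREBP-1a∆P replicate 4 the differences of Nr1d1, Nr1d2, Rora, Arntl, Clock, Cry1 and Nfil3 from C57Bl6 and from alb-SREBP-1a kept their side of the threshold and, except Nr1d2 between the lines (−0.02), their direction.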

How the data were processed

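Liver RNA (150 ng) of 24 mice was hybridised to Affymetrix Mouse Gene 1.0 ST arrays. The authors summarised the arrays by RMA in Expression Console and deposited log2 signals, which span 0.833 to 15.0 over 35556 probe sets. Neither further RMA settings nor the annotation build is stated in the sources used here. Of the probe sets 21789 carry 1 symbol, 1621 several and 12146 none in the array annotation. Where a gene had several, the one with the highest mean over 24 arrays was used. Coordinates and promoter windows are those of RefSeq (GRCm38.p6).

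Groups came from the labels. Pairs of genotypes were compared with limma 3.58.1 (R 4.3.3) on 8 against 8 arrays, and no array was left out. Within-genotype correlations used exact permutation over 40320 pairings (Python 3.11.15, numpy 2.4.6), over 18 relations because Npas2 is the sole symbol of no probe set in the annotation table used. The fits were tested on simulated data. The number of arrays limits precision.

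The 8 genes and all 13 gene lists were chosen with earlier results of these data known. Genes named in the text were the 8 members, up to 3 genes of each list other than the markers with the smallest p in each comparison, and the 5 most and 5 least correlated with Nr1d1 and with Arntl. Tef, Per1, Per2, Cry2, Ppargc1b, Ncoa2, Fbxw7, Fbxl21, Apoc3, Cyp8b1, Fgf21 and genes under comparisons other than that which named them were also given, after their values were seen. The alternatives tried were 3 scalings (quantile, centring on the median, cyclic loess), a joint fit of 24 arrays, a block for the replicate number, a trend in the variance model, array weights, removal of dim probe sets, the methods' t-test, and the omission of replicates 1 and 2 of alb-SREBP-1a or of replicate 4 of alb-SREBP-1a∆P. Scaling of the counts without overlap and the comparison with probe sets of like brightness were added after seeing the data.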

Additional observations from a re-analysis of the deposited data

How the results depend on the processing

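Against C57Bl6 every measured clock gene kept its direction under each alternative tried, and 6 of 7 in alb-SREBP-1a and 7 of 7 in alb-SREBP-1a∆P kept their side of the threshold. The exception was Clock in alb-SREBP-1a, which passed in 7 settings. Between the lines 5 genes passed, against 3 with the replicate block and 2 after cyclic loess. Rora reversed to 0.0042 after quantile normalization and 0.080 after cyclic loess. It missed the threshold with all 24 arrays in 1 fit, with the replicate block and without alb-SREBP-1a replicates 1 and 2. Nr1d1 missed it with the replicate block and with centring on the median. Cry1 passed after quantile normalization, centring on the median and without alb-SREBP-1a replicates 1 and 2. Deviations of same-numbered arrays of different genotypes correlated from −0.12 to 0.28, and 1 or 2 of 8 pairs in a comparison exceeded 0.1. Arrays of different numbers were not correlated for reference, so whether replicate numbers pair the arrays is not settled by these values. Listed genes that passed between the lines numbered 40, 21 after quantile normalization and 12 after cyclic loess. The 1 relation with Nr1d1 that passed, of 18, became 0 after quantile normalization, after cyclic loess, without the 2 arrays farthest from the median of Nr1d1 and without alb-SREBP-1a replicates 1 and 2, and stayed 1 with Spearman's rho. The smallest p over 6 arrays is larger than over 8. The cause of the other changes was not tested.

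Calls in alb-SREBP-1a∆P against C57Bl6 were 57.1% higher, against 40.6% after quantile normalization, 31.9% with centring on the median and 51.2% after cyclic loess, under which the median over all probe sets shifted by −0.14, −0.16 and −0.11. Between the lines the shares were 51.6%, 41.1%, 23.9% and 52.2%, and in alb-SREBP-1a against C57Bl6 63.0%, with 51.6% after quantile normalization. Under the scalings, chosen after seeing the data, 5 to 6 genes of alb-SREBP-1a and 5 to 7 of alb-SREBP-1a∆P did not overlap with C57Bl6, and 0 separated the lines. A mean over the probe sets of a gene could not differ, since each measured clock gene has 1.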
